A study of Mus musculus with 6 samples.

Results

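The 38 genes described here act in homologous recombination, in the Fanconi anaemia pathway of DNA crosslink repair and in the DNA damage checkpoint. They were taken by symbol from a gene-level FPKM table (fragments per kilobase of transcript, scaled to the mapped fragments of each library) of 25638 genes, in which all 38 were found. None of the 38 was below 1 FPKM in every library, so all 38 were compared. In vehicle cultures their mean levels ran from 1.64 FPKM (Rad51c) to 248 FPKM (Topbp1), with a median of 16.3 FPKM.

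Homologous recombination repairs broken DNA by copying the sister chromatid: the break is sensed and its ends are trimmed, BRCA proteins prepare the exposed strand for pairing with the sister copy, and helicases and nucleases take the joined molecules apart. The Fanconi anaemia proteins recognise crosslinked DNA at a stalled fork, attach ubiquitin to the FANCD2 and FANCI pair, and hand the lesion to the recombination machinery. The kinases ATM and ATR, with CHK2 and CHK1 below them, halt the cell cycle while repair goes on. Activated CD8+ T cells divide fast after antigen contact, and many of these genes are known to be transcribed mainly in dividing cells.

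The cells were mouse OT-I CD8+ T cells, whose transgenic receptor recognises the ovalbumin peptide OVA257-264, and all 6 libraries carry the same wild-type genotype label. They were given that peptide for 48 h and then purified again for RNA sequencing. The vehicle group received vehicle. The TAN group was cultured with CD11b+Ly6G+Ly6Clow cells and the TAMo group with CD11b+Ly6G-Ly6Chigh cells, both sorted from spleens of mice bearing LLC (Lewis lung carcinoma) tumours, so neither myeloid population came from the tumour itself. Each group had 2 libraries. The labels do not say whether these came from separate cultures or animals, so p-values measure only the spread between these libraries, which may be technical.

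The T cell identity of the libraries was checked first. All 12 T cell markers were expressed, with sums of 2736 and 2748 FPKM in vehicle, 2658 and 2667 FPKM with TAN and 2883 and 2924 FPKM with TAMo. Against vehicle 8 of the 12 were higher and 4 lower with TAMo. Cd5 went from 93.8 and 92.3 FPKM to 303.0 and 301.9 FPKM, Cd2 from 189 and 203 FPKM to 48.2 and 55.3 FPKM, and Cd8a from 145 and 152 FPKM to 94.5 and 95.1 FPKM. All 14 neutrophil markers were below 1 FPKM in every library and summed to at most 0.584 FPKM; 7 of them, S100a8, S100a9 and Cxcr2 included, were listed at 0 throughout. Of 15 monocyte and macrophage markers, 9 stayed below 1 FPKM everywhere, and the sums were 85.3 and 86.4 FPKM in vehicle, 78.2 and 78.9 FPKM with TAN and 72.6 and 77.3 FPKM with TAMo. Of the 6 tested, 4 were higher and 2 lower with TAMo than with vehicle. Cd14 went from 0.0852 and 0.0563 FPKM to 2.84 and 3.17 FPKM, and Cd68 from 2.95 and 2.35 FPKM to 3.63 and 7.05 FPKM. Ms4a6c went from 2.38 and 2.62 FPKM to 4.88 and 6.28 FPKM, and Ctsb from 29.8 and 29.0 FPKM to 48.7 and 48.6 FPKM. The 2 lower were Ly6c2, from 29.3 and 30.3 FPKM to 4.39 and 3.64 FPKM, and Apoe, from 21.7 and 20.7 FPKM to 7.35 and 7.75 FPKM. Csf1r, Adgre1, Fcgr1 and Itgam were at most 0.0602 FPKM in every library and Lyz2 at most 0.182 FPKM. B cell markers summed to between 6.88 and 9.36 FPKM and dendritic cell markers to between 36.7 and 43.9 FPKM over the 6 libraries. The dendritic sums were 43.9 and 41.7 FPKM in vehicle and 40.7 and 37.3 FPKM with TAMo. Most of the dendritic sum was H2-Ab1. Of the 3 dendritic markers tested, 1 (Zbtb46) was higher and 2 were lower with TAMo than with vehicle. Zbtb46 went from 1.93 and 1.51 FPKM in vehicle to 5.90 and 5.09 FPKM with TAMo and Xcr1 from 0.0451 and 0.0199 FPKM to 0.687 and 0.533 FPKM, while Itgax and Flt3 were below 1 FPKM in every library and Cd209a was listed at 0. The part of these marker changes in the results was not tested. The step between neighbouring low FPKM values put the depth at 41.7 to 45.2 M counted reads in 5 libraries and at 21.9 M in TAMo replicate 1, as far as the smallest step stands for 1 read. The 13 mitochondrially encoded genes held 8.07 to 8.34% of all FPKM in the vehicle and TAN libraries and 1.20 and 1.32% in the TAMo libraries. The part of this shift and of the lower depth in the results was not tested.

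With TAMo, 35 of the 38 genes fell, 2 rose (Chek2 and Mus81) and 1 (Atm) did not pass the test. The summed level of the 38 genes was 1045 and 1039 FPKM in vehicle, 1036 and 1048 FPKM with TAN and 267 and 260 FPKM with TAMo (267.2 and 259.8). The median gene kept 14.5% of its vehicle level. Below 10% of the vehicle mean lay 16 genes, between 10 and 50% lay 12, and at 50% or above lay 10. In bulk RNA, also of purified cells, fewer cells of a type and less RNA per cell cannot be told apart. Changes are given from limma as differences in log2(FPKM + 1), with their standard errors and Benjamini-Hochberg adjusted p over 10727 genes, and a gene was called at an adjusted p under 0.05. Folds are ratios of group mean FPKM, because the added 1 FPKM shrinks the log2 change of weakly expressed genes.

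The contrast with TAMo was broad: 86.5% of all genes tested were called, 40.7% of them lower and 45.7% higher, counted over all genes tested. Of the 38 genes 92.1% were lower and 5.26% higher. A stricter limit separated them further, since 19 of the 38 (50%) fell by 2 or more on the log2 scale, against 4.43% of all genes tested. The median change of the 38 genes was -1.94 and that of all genes tested 0.06. Both TAMo libraries lay below both vehicle libraries for the same 35 genes, against 43.7% of all genes tested.

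**Figure D1:**
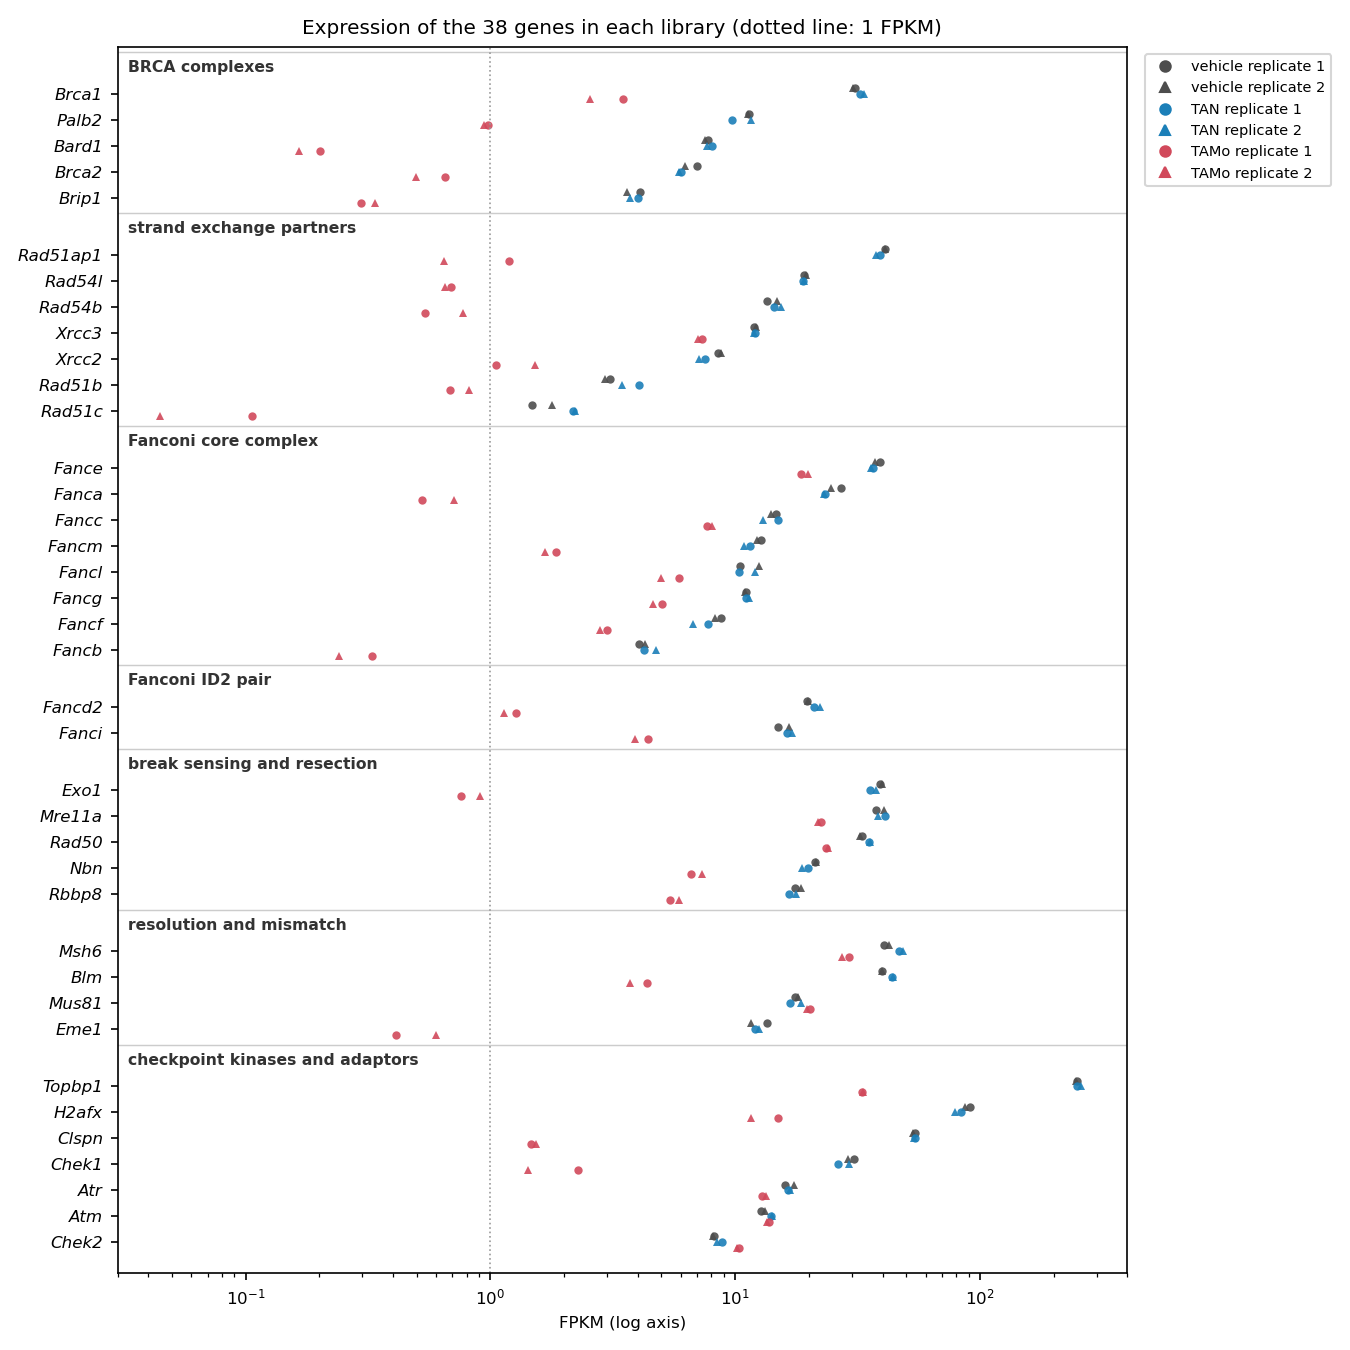
FPKM of each of the 38 genes (log axis) in the 6 libraries, grouped by role and ordered by vehicle level; circles are replicate 1 and triangles replicate 2. Vehicle and TAN points lie together for nearly every gene, while the TAMo points of 35 genes lie to their left and those of Chek2, Mus81 and Atm do not.

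The largest falls spanned several roles. Exo1, the exonuclease that extends resection of broken ends, stood at 39.2 and 39.8 FPKM in vehicle, 35.6 and 37.7 FPKM with TAN and 0.758 and 0.905 FPKM with TAMo. That is a 47.5-fold fall, with a log2 change of -4.47 ± 0.06 (SE, adjusted p = 1.24e-09). Rad51ap1, which aids the pairing of DNA strands, went from 41.0 and 40.8 FPKM to 1.19 and 0.644 FPKM, a 44.6-fold fall. Its TAMo libraries differed from each other by more than those of most of the 38 genes, and both lay below every other library.

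Clspn encodes claspin, the adaptor that lets ATR activate CHK1. It measured 54.4 and 53.5 FPKM in vehicle, 54.5 and 53.9 FPKM with TAN and 1.47 and 1.53 FPKM with TAMo, a 35.9-fold fall with a log2 change of -4.46 ± 0.04 (adjusted p = 3.89e-10). Its vehicle and TAN libraries overlapped and its TAMo libraries were close to each other. Topbp1, which activates ATR at stalled forks, was the most abundant of the 38 genes. It was at 249.4 and 246.2 FPKM in vehicle, 249.5 and 258.3 FPKM with TAN and 32.9 and 33.2 FPKM with TAMo, and fell 7.49-fold (-2.87 ± 0.03, adjusted p = 4.63e-10). At that level Topbp1 with TAMo still exceeded most of the 38 genes in vehicle cultures.

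Short promoter stretches show a motif that 14 of the 30 genes with a RefSeq promoter window carry. The motif is the binding sequence of E2F factors, which switch on S phase genes, searched on both strands as TTCCCGC, TTTGGCGC or TTTCGCGC from 250 bases before to 50 after the RefSeq start (GRCm38.p6). It was chosen with the TAMo changes known. Of 8358 tested genes with a window 11.9% held it, and of all 32851 windows 5.33%, against 46.7% here. The first 6 of the following genes fell with TAMo by 2 or more on the log2 scale, Msh6 fell by less, and Atm and Chek2 did not fall. Each is given 5′ to 3′ on the gene's strand with the match in capitals.
Rad51ap1 (chr6:126939558-126939587, minus strand): gtctggttttcgGCGGGAAttgaaaccgcc
Clspn (chr4:126556990-126557019, plus strand): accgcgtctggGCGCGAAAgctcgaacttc
Chek1 (chr9:36726609-36726638, minus strand): cagcatgacgcaagcaggttttgGCGGGAA
Topbp1 (chr9:103305187-103305216, plus strand): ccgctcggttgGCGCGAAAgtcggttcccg
Bard1 (chr1:71103163-71103192, minus strand): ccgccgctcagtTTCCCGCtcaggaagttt
Fancm (chr12:65075537-65075566, plus strand): caaccaatcatcTTCCCGCcgcaaaatcgg
Msh6 (chr17:87975054-87975083, plus strand): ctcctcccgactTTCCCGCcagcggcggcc
Atm (chr9:53536639-53536668, minus strand): atagagccggaaGCGGGAAggcgtgcgtac
Chek2 (chr5:110839819-110839848, plus strand): gcgggattagccGCGGGAAaccaagacgtc

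The longer upstream stretches of Fancm, which fell, and Chek2, which rose, are set side by side because both hold the match in capitals. The Fancm stretch ends at the base before the RefSeq start and the Chek2 stretch ends 6 bases before it.
Fancm (chr12:65075453-65075602, plus strand): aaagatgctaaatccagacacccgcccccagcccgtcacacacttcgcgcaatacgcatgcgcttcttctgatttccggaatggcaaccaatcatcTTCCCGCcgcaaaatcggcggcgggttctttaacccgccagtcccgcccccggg
Chek2 (chr5:110839783-110839977, plus strand): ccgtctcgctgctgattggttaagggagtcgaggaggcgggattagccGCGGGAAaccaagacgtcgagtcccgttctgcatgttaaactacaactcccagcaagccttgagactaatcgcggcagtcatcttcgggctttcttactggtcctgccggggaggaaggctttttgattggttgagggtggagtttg

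The 14 genes with a match changed by a median of -2.14 with TAMo (range -4.46 to 0.30), and 8 of them fell by 2 or more on the log2 scale. The 16 genes with a window and no match changed by a median of -1.24 (range -4.05 to 0.15), and 6 of them fell that far, Fanca, Rad54l, Eme1, Blm and Brca1 among them. The ranges of the changes with and without a match overlap. The CHR element of cell cycle genes, searched as TTTGAA, was in 3 of the 30 windows (10% against 14.1% of tested genes). The CCAAT box, searched as CCAAT, was in 19 of the 30 (63.3% against 43.7% of tested genes).

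The 5 genes of the BRCA complexes fell to between 2.41 and 9.87% of vehicle, and none overlapped between vehicle and TAMo. Brca1, the ubiquitin ligase that steers breaks to recombination, lies on the minus strand of chromosome 11 (chr11:101488764-101551955, GRCm38). It measured 30.9 and 30.2 FPKM in vehicle, 32.3 and 33.6 FPKM with TAN and 3.48 and 2.55 FPKM with TAMo, a 10.1-fold fall (log2 change -2.98 ± 0.10, adjusted p = 8.24e-08). Bard1, its obligate partner, went from 7.71 and 7.53 FPKM to 0.202 and 0.165 FPKM, a 41.5-fold fall. As a ratio of FPKM the partner fell further than Brca1 itself: the Brca1 to Bard1 ratio was 4.01 and 4.01 in vehicle, 3.99 and 4.38 with TAN and 17.3 and 15.4 with TAMo. In log2(FPKM + 1) the change of Bard1 was -2.86 and not larger than that of Brca1. The Bard1 values with TAMo stand for about 25.0 and 39.0 reads, as far as the smallest FPKM step stands for 1 read in both libraries.

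Palb2, which bridges BRCA1 to BRCA2, measured 11.4 and 11.3 FPKM in vehicle and 0.977 and 0.945 FPKM with TAMo. Brca2, which acts in preparing the exposed strand, measured 7.0 and 6.22 FPKM in vehicle and 0.654 and 0.495 FPKM with TAMo. Brip1, a helicase that binds BRCA1, measured 4.08 and 3.6 FPKM in vehicle and 0.296 and 0.339 FPKM with TAMo. Their falls of 11.8-, 11.5- and 12.1-fold were of nearly the same size as that of Brca1. The Brip1 to Brca1 ratio was 0.132 and 0.119 in vehicle and 0.0850 and 0.133 with TAMo, so that these groups overlapped.

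The 7 genes that aid strand exchange were less alike, with 2.24 to 59.4% of vehicle left. Rad54l and Rad54b encode motor proteins that remodel DNA during strand exchange. Rad54l stood at 19.2 and 19.5 FPKM in vehicle, 18.9 and 19.1 FPKM with TAN and 0.692 and 0.653 FPKM with TAMo, a 28.8-fold fall (-3.60 ± 0.05, adjusted p = 1.98e-09). Rad54b stood at 13.6 and 14.8 FPKM in vehicle, 14.5 and 15.4 FPKM with TAN and 0.543 and 0.770 FPKM with TAMo, a 21.6-fold fall (-3.20 ± 0.09, adjusted p = 2.69e-08). Rad54l shares 1184 exonic bases with Lrrc41 on the opposite strand, which was at 17.3 and 17.8 FPKM in vehicle and 20.4 and 20.5 FPKM with TAMo. No source used here states the strand setting of the counting, so reads from the shared bases cannot be told apart.

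Xrcc2, Xrcc3, Rad51b and Rad51c, related genes whose products aid strand exchange, split. Xrcc3 fell least, from 12.0 and 12.2 FPKM in vehicle to 7.33 and 7.04 FPKM with TAMo (1.68-fold, -0.68 ± 0.05). Xrcc2 went from 8.50 and 8.72 FPKM to 1.06 and 1.53 FPKM, a 6.67-fold fall. Rad51b went from 3.07 and 2.94 FPKM to 0.684 and 0.818 FPKM, a 4.0-fold fall. Rad51c, the least abundant of the 38 genes, stood at 1.48 and 1.79 FPKM in vehicle and 0.106 and 0.0448 FPKM with TAMo. These TAMo values stand for about 10.2 and 8.2 reads, as far as the smallest FPKM step stands for 1 read. The 21.6-fold fall of Rad51c therefore rests on very few reads, although no library overlapped.

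All 8 genes of the Fanconi core complex, the ubiquitin ligase assembly, fell, and they fell by very unequal amounts. Fanca, the scaffold subunit mutated most often in Fanconi anaemia (chr8:123268300-123318576, GRCm38, minus strand), stood at 27.0 and 24.7 FPKM in vehicle, 23.4 and 23.0 FPKM with TAN and 0.526 and 0.713 FPKM with TAMo. That is a 41.7-fold fall (-4.05 ± 0.07, adjusted p = 4.52e-09). Fancb, a subunit of the catalytic module, fell 14.7-fold, from 4.06 and 4.30 FPKM to 0.328 and 0.241 FPKM. Fancm, the translocase that anchors the complex on DNA, fell 7.09-fold, from 12.7 and 12.3 FPKM to 1.85 and 1.68 FPKM. Fanca shares 920 exonic bases with Zfp276 on the opposite strand, which stood at 14.2 and 14.1 FPKM in vehicle and 9.72 and 10.3 FPKM with TAMo.

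The other 5 core subunits kept 34.1 to 54.8% of vehicle. Fance, which bridges the core to FANCD2, measured 38.9 and 37.1 FPKM in vehicle and 18.6 and 19.8 FPKM with TAMo (1.98-fold, -0.95 ± 0.05, adjusted p = 5.93e-07). Fancc, its partner, measured 14.6 and 14.0 FPKM in vehicle and 7.64 and 8.02 FPKM with TAMo. The Fancc to Fance ratio was 0.376 and 0.376 in vehicle and 0.412 and 0.404 with TAMo, a small shift beside that of Fanca to Fancg, which went from 2.44 and 2.27 to 0.104 and 0.155. Fancf, an adaptor, fell 2.93-fold. Fancg, which binds FANCA, fell 2.28-fold. Fancl, the ubiquitin ligase subunit itself, fell 2.12-fold (-0.96 ± 0.11, adjusted p = 9.4e-05), from 10.5 and 12.5 FPKM to 5.88 and 4.98 FPKM.

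The substrates of the core complex fell unequally too. Fancd2 stood at 19.7 and 19.9 FPKM in vehicle, 20.9 and 22.1 FPKM with TAN and 1.27 and 1.13 FPKM with TAMo, a 16.5-fold fall (-3.24 ± 0.06, adjusted p = 4.52e-09). Fanci, with which it forms a clamp around DNA, stood at 14.98 and 16.6 FPKM in vehicle, 16.3 and 17.0 FPKM with TAN and 4.39 and 3.89 FPKM with TAMo, a 3.81-fold fall. The Fancd2 to Fanci ratio accordingly went from 1.32 and 1.20 in vehicle to 0.289 and 0.291 with TAMo. Fanci shares 921 exonic bases with Polg on the opposite strand. Polg stood at 58.0 and 56.1 FPKM in vehicle and 53.7 and 49.7 FPKM with TAMo. With the strand setting unknown, reads from the shared bases cannot be told apart, and their part in the Fanci level was not tested.

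Among the 5 genes of break sensing and resection, the MRN complex kept more of its level than Exo1. Rad50, the zinc-hook subunit that tethers ends, measured 32.9 and 32.4 FPKM in vehicle, 35.2 and 35.6 FPKM with TAN and 23.5 and 23.9 FPKM with TAMo. It kept 72.6% (-0.44 ± 0.03, adjusted p = 9.19e-06). Mre11a, the nuclease subunit, kept 56.4%, with 37.8 and 40.5 FPKM in vehicle and 22.4 and 21.8 FPKM with TAMo. Nbn, the subunit that recruits ATM, kept 32.8%, with 21.1 and 21.3 FPKM in vehicle and 6.60 and 7.32 FPKM with TAMo. Rbbp8, which encodes the MRN cofactor CtIP, kept 31.2%, with 17.6 and 18.6 FPKM in vehicle and 5.42 and 5.89 FPKM with TAMo. Within the complex, Nbn to Rad50 went from 0.641 and 0.658 to 0.281 and 0.306, and Mre11a to Rad50 from 1.15 and 1.25 to 0.951 and 0.911.

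**Figure D2:**
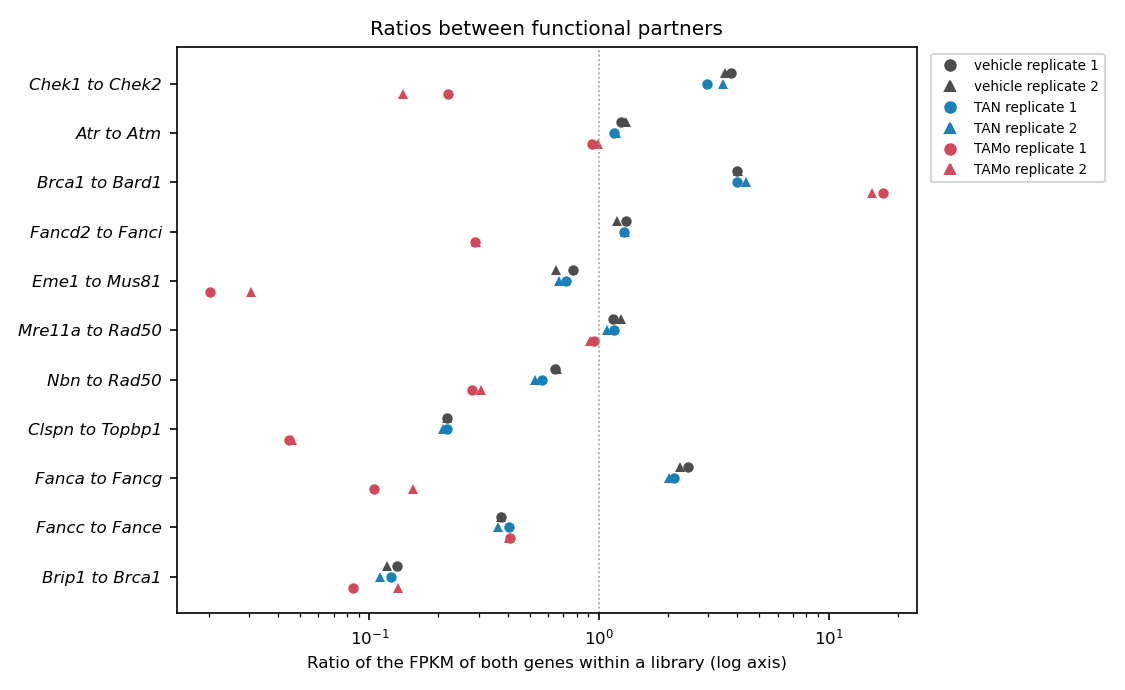
Ratio of FPKM within pairs of genes whose products act together (log axis), one point for each of the 6 libraries, with circles for replicate 1 and triangles for replicate 2. The TAMo ratios of Chek1 to Chek2 and Eme1 to Mus81 lie far below those of the other libraries, and those of Brca1 to Bard1 above them.

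Of 4 genes of junction resolution and mismatch recognition, 3 fell with TAMo and Mus81 rose. Blm, the helicase that dissolves double Holliday junctions, stood at 39.8 and 39.9 FPKM in vehicle, 43.6 and 44.4 FPKM with TAN and 4.38 and 3.74 FPKM with TAMo, a 9.82-fold fall. Mus81, a structure-specific nuclease (chr19:5482345-5488402, GRCm38, minus strand), stood at 17.6 and 18.0 FPKM in vehicle, 16.8 and 18.6 FPKM with TAN and 20.2 and 19.6 FPKM with TAMo. Its mean with TAMo was 112% of vehicle (log2 change 0.15 ± 0.06, adjusted p = 0.0322). That call did not hold when any single vehicle or TAMo library was left out (adjusted p of 0.123 and 0.0743 without vehicle replicate 1 and 2, and 0.119 and 0.0505 without TAMo replicate 1 and 2). Without TAN replicate 1 or 2 the call against vehicle did hold.

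Eme1 encodes a partner with which MUS81 forms an active nuclease. It stood at 13.6 and 11.7 FPKM in vehicle, 12.1 and 12.5 FPKM with TAN and 0.411 and 0.599 FPKM with TAMo, a 25.0-fold fall (-3.18 ± 0.09, adjusted p = 4.13e-08). The Eme1 to Mus81 ratio went from 0.770 and 0.648 in vehicle to 0.0203 and 0.0305 with TAMo. The Eme1 values with TAMo stand for about 24.9 and 69.0 reads, as far as the smallest FPKM step stands for 1 read in both libraries. Msh6, whose product recognises base mismatches, kept 67.7%, with 40.7 and 42.6 FPKM in vehicle, 46.9 and 48.5 FPKM with TAN and 29.1 and 27.3 FPKM with TAMo (-0.55 ± 0.04, adjusted p = 1.18e-05). In all 22 such ratios were computed, and with 2 libraries against 2 the smallest two-sided p of an exact permutation test is 0.3333, so the ratios are given as descriptions and were not tested.

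Chek1 and Chek2, the effector kinases of the checkpoint, moved in opposite directions with TAMo. Chek1, the kinase below ATR, stood at 30.7 and 28.9 FPKM in vehicle, 26.2 and 29.3 FPKM with TAN and 2.29 and 1.43 FPKM with TAMo, a 16.0-fold fall (-3.45 ± 0.13, adjusted p = 1.74e-07). Chek2, the kinase below ATM (chr5:110839979-110874145, GRCm38, plus strand), stood at 8.16 and 8.13 FPKM in vehicle, 8.86 and 8.42 FPKM with TAN and 10.4 and 10.2 FPKM with TAMo. It rose to 126% of vehicle (0.30 ± 0.05, adjusted p = 0.00118), with no overlap. The Chek1 to Chek2 ratio was 3.76 and 3.55 in vehicle, 2.96 and 3.48 with TAN and 0.220 and 0.140 with TAMo.

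The apical kinases moved little. Atr measured 16.0 and 17.4 FPKM in vehicle, 16.4 and 16.7 FPKM with TAN and 12.8 and 13.3 FPKM with TAMo, where it kept 78.3% (-0.33 ± 0.05, adjusted p = 0.000767). Atm measured 12.8 and 13.3 FPKM in vehicle, 14.1 and 14.1 FPKM with TAN and 13.8 and 13.5 FPKM with TAMo, or 105% of vehicle (0.06 ± 0.05, adjusted p = 0.256). Atm was the 1 gene of the 38 that did not pass, although both TAMo libraries lay above both vehicle libraries. H2afx encodes the histone variant that ATM and ATR phosphorylate around breaks. It fell 6.70-fold, from 91.1 and 87.0 FPKM to 14.97 and 11.6 FPKM.

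**Figure D3:**
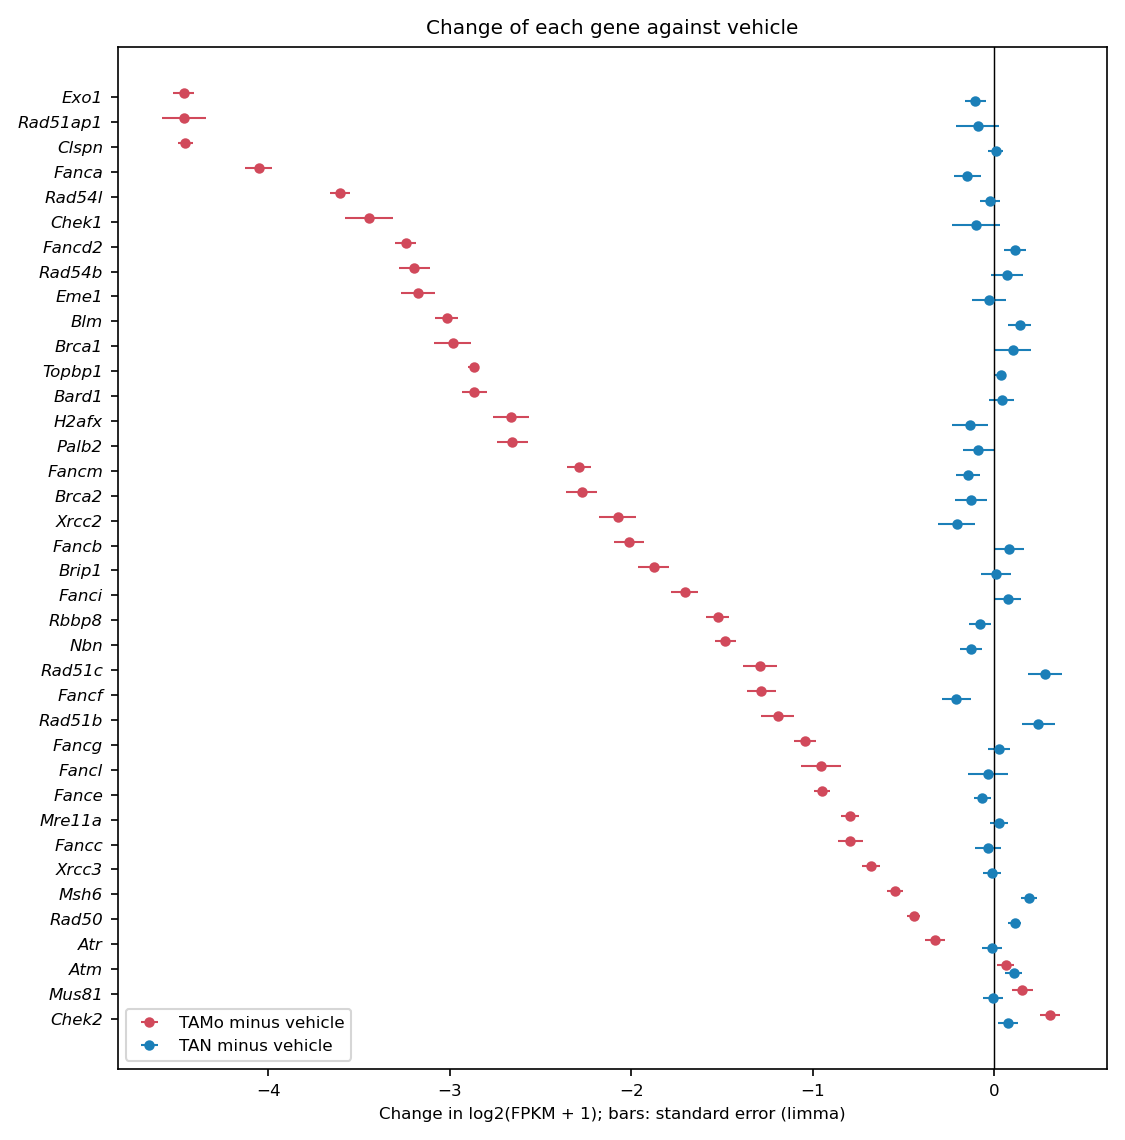
Change of each of the 38 genes against vehicle in log2(FPKM + 1) from limma, with standard errors as bars, ordered by the change with TAMo. TAMo changes run from -4.47 (Exo1) to 0.30 (Chek2), while every TAN change lies within 0.3 of 0.

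With TAN, 1 of the 38 genes rose (Msh6), none fell and 37 did not pass the limma test, where 20.3% of all genes tested were called (9.37% higher and 11% lower). That background itself moved when a library was left out: 2180 genes were called with all 6, and 725, 829, 823 and 730 without vehicle replicate 1, vehicle replicate 2, TAN replicate 1 and TAN replicate 2. The median change of the 38 genes was -0.01, and that of all genes tested also -0.01. Every one of the 38 changes was smaller than 0.3 in size on the log2 scale, a size that 8.86% of all genes tested reached. At an unadjusted p under 0.05 there were 4 genes higher (Rad51b, Rad51c, Rad50 and Msh6) and 1 lower (Fancf), while 34.8% of all genes tested were under that limit.

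Msh6 with TAN changed by 0.19 ± 0.04 (SE, adjusted p = 0.0254). Its TAN libraries, given above, both lay over its vehicle libraries. The call did not hold without vehicle replicate 1 (adjusted p = 0.141), vehicle replicate 2 (0.0696), TAN replicate 1 (0.0813) or TAN replicate 2 (0.139), nor in a fit without a variance trend (0.0586). The largest estimates were those of Rad51c, with 2.17 and 2.22 FPKM with TAN, at 0.28 ± 0.09 (adjusted p = 0.0776), and Rad51b, with 4.04 and 3.45 FPKM, at 0.24 ± 0.09 (adjusted p = 0.107). In FPKM the Rad51c mean was 34.1% over vehicle, the largest such difference among the 38. Rad50 was at 0.11 ± 0.03 (adjusted p = 0.0618). On the lower side Fancf, with 8.74 and 8.28 FPKM in vehicle and 7.73 and 6.73 FPKM with TAN, was at -0.21 ± 0.08 (adjusted p = 0.108). Xrcc2, with 7.56 and 7.10 FPKM with TAN, was at -0.21 ± 0.10 (adjusted p = 0.202).

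For 30 of the 38 genes the TAN mean was within 10% of the vehicle mean. TAN and vehicle libraries overlapped for 17 genes, lay above for 10 and below for 11, where 30.8% of all genes tested lay above and 33.3% below. The 4 smallest estimates were those of Mus81 (-0.01), Clspn (0.01), Brip1 (0.01) and Atr (-0.01), and all 4 overlapped. Standard errors in this contrast ran from 0.03 (Topbp1) to 0.13 (Chek1), with a median of 0.07.

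Set directly against TAMo, the TAN cultures had higher levels of 35 of the 38 genes and lower levels of Mus81 and Chek2, and Atm did not pass. Of all genes tested 86.6% were called in this contrast, 40.6% of all higher and 46% lower with TAN. The differences of TAN over TAMo were largest for Clspn (4.47), Rad51ap1 (4.37), Exo1 (4.36) and Fanca (3.90) on the log2 scale. Chek2 differed by -0.23 (adjusted p = 0.00518) and Mus81 by -0.16 (adjusted p = 0.0268). The Mus81 call did not hold without TAN replicate 1 (adjusted p = 0.163) or TAMo replicate 1 (0.103). The TAN and TAMo contrasts against vehicle share the vehicle libraries, and this contrast shares both other groups with them.

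Other genes of the same pathways changed with TAMo in both directions. Of 37 tested genes of 38 listed for recombination and crosslink repair outside the 38 members, 29 fell and 8 rose, with a median change of -0.72. Over all genes tested 40.7% were lower and 45.7% higher in this contrast. Fignl1, which acts in recombination, fell 18.0-fold (-3.70), and Rmi2, whose product is a partner of BLM, 13.9-fold (-2.94). Against that, Rad51d, related to Rad51b and Rad51c, rose 3.68-fold, from 15.3 to 56.1 FPKM (1.81). Rev3l, the catalytic subunit of the translesion polymerase zeta, rose 2.19-fold, and Rev1, its scaffold, 1.501-fold. Rad51d thus moved opposite to Rad51b, Rad51c and Xrcc2, with whose products its own forms a complex.

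Of 20 tested genes of 21 listed for the damage checkpoint, 15 fell and 4 rose, where 40.7% of all genes tested fell and 45.7% rose. The median was -1.23, and 1 gene did not pass. Timeless, a fork protection factor, fell 32.8-fold, Cdc25c, a phosphatase that CHK1 restrains, 32.0-fold, and the related Cdc25b 15.1-fold. Trp53bp1, which encodes 53BP1 and opposes resection, rose 2.10-fold, and Ppm1d, a phosphatase that ends checkpoint signalling, rose 1.76-fold. Of 17 end joining genes 12 fell and 3 rose, beside the same shares of all genes tested. The median was -0.99, and 2 genes did not pass. Polq, of the microhomology route, fell 25.8-fold. Lig4 and Xrcc4, which form the ligase of classical end joining, rose 2.09- and 1.67-fold.

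A reference list of 20 S phase and mitosis genes moved with these results. All 20 fell with TAMo, by a median of -4.32, where 40.7% of all genes tested fell. Their sum went from 2880 and 2886 FPKM in vehicle to 154 and 164 FPKM with TAMo (154.1 and 164.4). With TAN it was 2886 and 2883 FPKM. Plk1, a mitotic kinase, fell 99.0-fold and Mki67, which encodes the Ki-67 protein, 36.5-fold. Their part in the falls of the 38 genes was not tested. With TAN 4 of the 20 fell, furthest Cdc6, Cdt1 and Tyms, and 16 did not pass. In the same contrast 3 of the 37 other recombination genes fell (Faap24, Slx4 and Babam1) and 1 of the 20 other checkpoint genes rose (Mdc1, 0.24). Of the 17 end joining genes Xrcc4 (0.22) and Parp1 (0.19) rose while Parp3 (-0.35) and Xrcc5 (-0.26) fell. Over all genes tested 9.37% were higher and 11% lower with TAN. The limma adjusted p lay between 0.0410 and 0.0497 for Babam1, Slx4, Cdt1, Mdc1, Xrcc4 and Tyms. It was lower for Faap24, Cdc6, Parp1, Parp3 and Xrcc5.

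**Figure D4:**
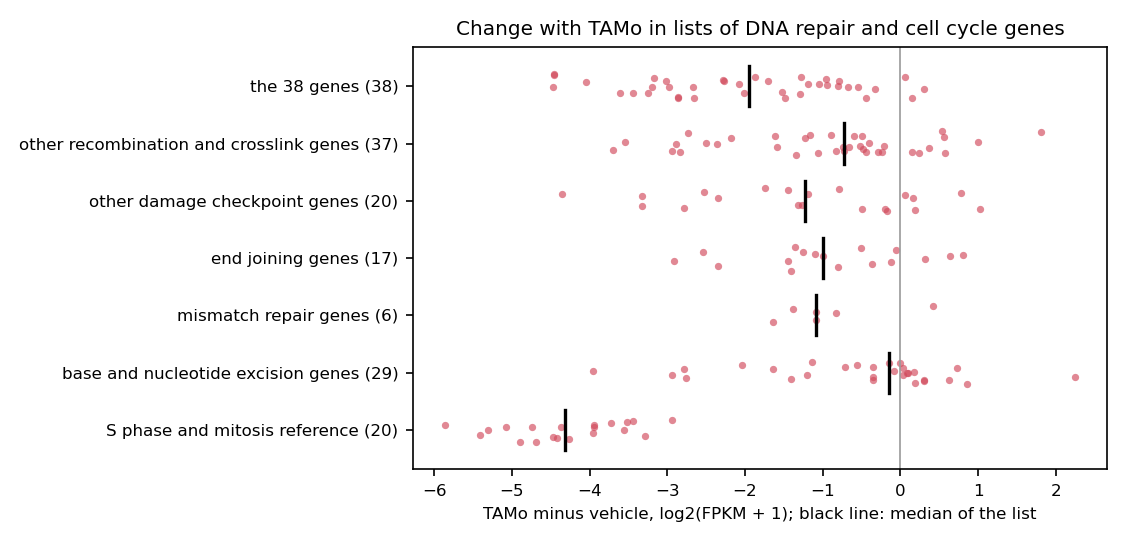
Change with TAMo against vehicle in log2(FPKM + 1) for every tested gene of the 38 and of the other repair, checkpoint and cell cycle lists; each point is 1 gene and the bar is the list's median. The medians run from -4.32 for the S phase and mitosis list to -0.15 for the excision repair list, with -1.94 for the 38 genes.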

How the data were processed

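RNA of 6 libraries (TruSeq, NovaSeq 6000, per the labels' protocols) was handled with CASAVA, HISAT2 2.0.5, featureCounts 1.5.0-p3 and mm10, per the submitters' processing notes. The authors deposited 1 table of FPKM per gene, with columns named for the 3 groups. FPKM hold no counts, and no source used here states the gene lengths or the strand setting. From these values log2(FPKM + 1) was fitted with limma 3.58.1 (R 4.3.3; variance trend, all 6 libraries, two-sided, Benjamini-Hochberg adjustment) over the 10727 genes that reached 1 FPKM in 2 or more libraries, with 3 residual degrees of freedom. Relative depth came from the steps between low values of 7708 single-transcript genes (tolerance 0.05 reads), of which 97.7 to 99.1% were whole multiples.

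The 38 genes, their roles and the other lists were chosen with earlier results of these data known. All 38 may be named. Values by library are given for the most abundant, for the 8 largest and 4 smallest changes and for calls against the main direction. They were extended to the rest. From other repair, checkpoint and cell cycle lists at most 3 rises and 3 falls per contrast are named. Coordinates are from GENCODE (GRCm38) and promoter sequences from RefSeq (GRCm38.p6), which matched 30 of the 38. Values of some other repair genes are not reported here.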

Additional observations from a re-analysis of the deposited data

How the results depend on the processing

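With TAMo 35 of the 38 genes were lower in each setting that tested all 38, and none of their changes against vehicle reversed. The median TAMo change of -1.94 became -2.75 and -2.38 with 0.1 and 0.5 FPKM added in place of 1, and -2.08 with a mean of at least 5 FPKM required (33 genes); leaving out 1 library gave -1.96 to -1.89. The median of TAN over TAMo, 1.88, became 2.61 and 2.30 with 0.1 and 0.5 FPKM added, and 1.84 to 1.96 without 1 library. With no filter, with quantile normalisation and with centring on the median of all genes tested, 1 gene rather than 2 was higher with TAMo than vehicle, and 1 rather than 2 lower with TAN than TAMo, since Mus81 lost its call (1 to 2 genes without 1 library, in both). Without the filter 1331 rather than 2180 genes were called with TAN and 0 rather than 1 of the 38 was higher; without 1 library 725 to 2574 genes were called and 0 to 2 of the 38 were higher. Fitting only the 2 groups compared gave 2 of the 38 higher with TAN (Blm added, adjusted p = 0.023) and 1 lower (H2afx), and quantile normalisation 2 higher (Rad50 added). Without a variance trend the 1 gene higher with TAN was Rad51c (adjusted p = 0.0498) in place of Msh6 (0.0586). The TAN estimates of 9 of the 38 genes changed sign without 1 library: Brip1 (-0.063 to 0.081), Mus81 (-0.076 to 0.061), Atr (-0.070 to 0.048), Clspn (-0.0040 to 0.020), Eme1 (-0.13 to 0.071), Fancc (-0.12 to 0.056), Fancl (-0.15 to 0.084), Mre11a (-0.024 to 0.072) and Palb2 (-0.20 to 0.026). Under quantile normalisation Brip1 was at -0.012 and Mus81 at 0.0029. Rescaling to 1 sum without mitochondrial genes raised FPKM with TAMo by 0.10 on the log2 scale relative to vehicle. It put Atm at -0.045 for TAN against TAMo and at 0.15 (adjusted p = 0.0186) for TAMo against vehicle. The cause of these differences was not tested.

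The labels' replicate numbers do not state a pairing, and same-numbered libraries deviated together with correlations across genes of 0.057, 0.024 and 0.0078. With the replicate block 2140 genes were called with TAN, against 2180 without. FPKM low in the TAMo libraries (12 and 13 of the 38 genes under 1 FPKM) limit how exactly the largest folds are known.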

Other observations

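Mismatch repair and excision repair genes act outside the pathways above. Of all genes tested 40.7% were lower and 45.7% higher with TAMo, and the excision repair counts below lie near or under those shares. Of 6 mismatch repair genes 5 fell and Mlh3 rose (1.48-fold), with a median of -1.09. Msh3, whose product recognises larger loops, fell 3.68-fold. Of 29 tested genes of 30 listed for base and nucleotide excision repair, 14 fell and 9 rose; the median was -0.15, and 6 genes did not pass. Ung, the uracil glycosylase, fell 28.7-fold, Mutyh, which removes adenine opposite oxidised guanine, 9.83-fold, and Fen1, the flap endonuclease, 8.54-fold. Ercc5, the nuclease that cuts 3′ of a bulky lesion, rose 5.12-fold, from a mean of 10.4 to 53.5 FPKM. Smug1, another uracil glycosylase, rose 2.07-fold and Xpa, a damage verification factor, 1.88-fold. With TAN none of the 6 mismatch repair genes passed the limma test. In that contrast 1 of the 29 excision repair genes fell (Ercc1, -0.14), where 11% of all genes tested fell.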
